A study of Schizosaccharomyces pombe with 2 samples.

Results

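A stretch of the left arm of chromosome III of fission yeast (Schizosaccharomyces pombe) had more DNA in 1 of 2 sap1-1 revertants than in the other. It was read from the 280 probes of a tiling array whose names place them from 400201 to 483901 of chromosome III, of 41551 probes in all that were not controls. The interval holds DNA at the level of the rest of the genome on its left and DNA gained in revertant 2 on its right, and it was chosen because the log2 ratios of these arrays differ there. The level of the stretch, the place of its left end and the size of the difference are therefore descriptions, with no test.

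Each array compared genomic DNA of a revertant, of genotype sap1-1 in the 972h background, with genomic DNA of the wild type in the same background. Revertant DNA carried the dye Cy5 and wild-type DNA the dye Cy3 on both arrays, after digestion with the restriction enzymes AluI and RsaI. Because the dyes were not swapped, any dye effect of single probes remains in the ratios. Neither array carried the sap1-1 parent before reversion. The labels say neither that the 2 revertants are separate isolates nor that 1 extract of wild-type DNA served both arrays. With 1 array for each revertant, no difference between them has a replicate check. DNA was taken from whole cultures, so that more copies in each cell and more cells with an extra copy cannot be told apart.

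Comparative genomic hybridization reads copy number from the competition of differently labelled DNAs for the same probe. In a haploid yeast a segment present as 1 extra copy in every cell gives a log2 ratio near 1, and DNA at the copy number of the wild type gives a ratio near 0. Sap1, the product of sap1, is essential, binds DNA and pauses replication forks at programmed barriers. Revertants are strains in which a mutant phenotype was lost again. The wtf genes are a dispersed family of spore killers, most of them on chromosome III. They destroy spores that do not inherit them, many are decayed copies, and their high sequence similarity makes them sites of recombination between copies. Long terminal repeats, the ends of retrotransposons, are the other common dispersed repeat of this genome.

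A log2 ratio is log2 of the revertant signal over the wild-type signal, less the median of the array over its probes that were not controls. Of the 41551 probes, 41533 and 41543 were well above background in both channels of arrays 1 and 2, and 41538 remained after 13 with an outlier flag were left out. Over all probes, the ratios of the 2 arrays correlated at r = 0.97 across probes, which are not independent replicates. All 280 probes of the interval were well above background in both channels of both arrays, 0 carried an outlier flag and 2 were saturated in a channel. They were scattered over rows 6 to 530 of the 532 rows of the array and over columns 1 to 85. A probe position is the first base of the 300 bp bin that its name gives, and the sources used here do not give the genome build of these names. Genes were placed by the ASM294v3 assembly, and both sets of positions match only approximately on this part of the chromosome.

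The elements of the interval that were searched for close copies elsewhere are shown first, since the left end of the gain was read at one of them. Only wtf8, rpl1702 and rpl1902 were searched. The pseudogene wtf8 (III:427445-428763, 1319 bp) matched 17 other annotated wtf genes over at least 600 bp, 16 of them on chromosome III, at 74.0 to 97.4% identity. The closest match was to wtf9 (III:487167-489016), at 97.4% over 693 bp with an unbroken identical run of 210 bp. A match to wtf10 (III:615387-617622) ran over 669 bp at 93.0%, with a longest identical run of 73 bp. Both lie on the same strand as wtf8. The gain that both revertants share, as read from each array alone, begins near wtf9 and ends near wtf10. Below are 120 bases of the 3 genes, read on the plus strand of ASM294v3 at III:427916-428035, III:487637-487756 and III:616077-616196, with capitals at bases that differ from wtf8.
wtf8: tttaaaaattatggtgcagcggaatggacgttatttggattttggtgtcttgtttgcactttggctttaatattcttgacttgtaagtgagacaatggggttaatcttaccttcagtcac
wtf9: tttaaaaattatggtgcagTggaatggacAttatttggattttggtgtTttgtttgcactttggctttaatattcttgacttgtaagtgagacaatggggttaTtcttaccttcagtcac
wtf10: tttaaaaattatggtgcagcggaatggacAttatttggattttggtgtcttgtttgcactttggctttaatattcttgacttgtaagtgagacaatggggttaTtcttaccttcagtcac
In this window wtf9 differed from wtf8 at 4 bases and wtf10 at 2. It was picked as the 120 aligned bases without gaps where both are most like wtf8, so it is more alike than the whole matches. The window lies in another match of wtf9, which ran over 676 bp at 92.3%, and in the match of wtf10 given above.

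The other 2 genes searched also had a close copy, and both are genes of the large ribosomal subunit. rpl1702, near the right end of the gained DNA, matched rpl1701 of chromosome II (II:1733417-1733983) at 90.8% over 567 bp. rpl1902, in the DNA left of the gain, matched rpl1901 of chromosome II (II:4123136-4123721) at 89.8% over 586 bp. Below are 120 bases of the first pair on the plus strand of ASM294v3, at III:482296-482415 and II:1733481-1733600, inside the coding sequence of genes that run on the minus strand. The pair is shown because the lowest difference right of wtf8 was read at a probe in rpl1702. The bin of that probe begins at 482401, so the printed bases hold only the start of it. They were picked as the 120 aligned bases where both genes are most alike, and are more alike than the whole match. Capitals mark the 4 bases that differ from rpl1702.
rpl1702: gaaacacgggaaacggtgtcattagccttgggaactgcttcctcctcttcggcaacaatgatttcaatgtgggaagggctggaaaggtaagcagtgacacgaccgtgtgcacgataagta
rpl1701: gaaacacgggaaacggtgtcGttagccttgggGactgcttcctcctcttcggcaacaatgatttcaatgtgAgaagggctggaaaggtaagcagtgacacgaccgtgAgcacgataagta
The probe sequences were not used here, so that the part of a signal that comes from a copy elsewhere could not be computed. Apart from wtf8, the interval holds few repeats: 0 annotated long terminal repeats and 1 tRNA gene (III:473199-473280). The nearest long terminal repeat, at III:486575-486925, lies to the right of the interval.

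The gained DNA was at about 1 extra copy in revertant 2 and near the level of the genome in revertant 1. Over the 190 probes from 427.2 kb to 483901, which cover 57.0 kb, the median log2 ratio was 0.07 in revertant 1 (1.05-fold) and 0.99 in revertant 2 (1.99-fold). Revertant 2 minus revertant 1, probe by probe, had a median of 0.97 (1.96-fold) and ranged from 0.07 to 1.29. All 190 differences were above 0, and 184 of them were at least 0.5. Among all probes of the array, 0.679% reached a difference of 0.5 in this direction, and the interval was chosen on this contrast. The DNA left of it, 90 probes from 400201 to 426901 (27.0 kb), had medians of 0.06 in revertant 1 and -0.01 in revertant 2, and a median difference of -0.04 (range -0.34 to 0.37). None of those 90 probes reached 0.5 in the difference.

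**Figure D1:**
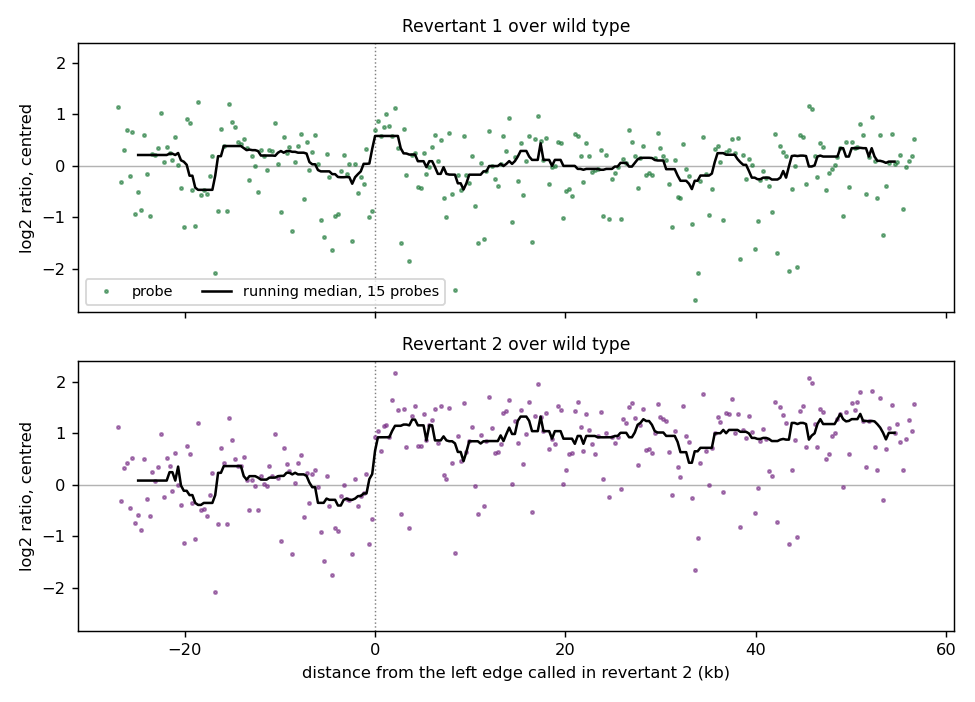
Log2 ratio of revertant over wild type (y) for the 280 probes against the distance in kb from the probe at 427.2 kb (x, dotted line at 0), revertant 1 above and revertant 2 below. Points are probes and the black line is a running median over 15 probes. In revertant 2 the line steps up to a level near 0.99 to the right of the dotted line, while in revertant 1 it stays around 0.07 except for a short rise at the line.

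Single ratios varied far more between probes than between arrays, which is why the difference between the arrays shows the step more sharply than either array. The SD over the 90 probes left of the gain was 0.69 in revertant 1 and 0.67 in revertant 2, but 0.14 in their difference. The ratios of the 2 revertants correlated at r = 0.98 across those 90 probes. A single ratio past 0.5 therefore says little about copy number here. In revertant 1, 38 of the 190 probes of the gained DNA and 18 of the 90 on its left were at 0.5 or more, beside 17.4% of all probes on that array. In revertant 2 the counts were 148 and 15, beside 17.3% of all probes on that array.

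The ends of the probe interval were set by the rule, and values just inside and outside it show no step in the difference at either end. At the left end, probe 399901 outside had 0.13 in revertant 1 and 0.10 in revertant 2, and probe 400201 inside had 1.15 and 1.11. At the right end, probe 483901 inside had 0.51 and 1.57, and probe 484201 outside had -0.50 and 0.57. The differences between the revertants were thus -0.04 on both sides of the left end, and 1.06 inside and 1.07 outside the right end. The gain of revertant 2 ran on past the interval without a break. In the 9 probes from 484201 to 486601 the median difference was 0.88, with medians of -0.25 in revertant 1 and 0.60 in revertant 2. A least-squares fit of 1 raised run, up to position 700000, gave a gain from 486901 to 615901 in revertant 1 and from 427.2 kb to 615901 in revertant 2. From 486901 to 615901, which both revertants had gained, the medians were 0.97 and 0.95 over 424 probes, and the median difference was -0.02 (SD over probes 0.13). On array 2 the level of the stretch gained in revertant 2 only, 0.99, was thus close to the 0.95 of the shared gain that it adjoins.

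The left end of the gain fell at a different place according to whether revertant 2 was read alone or against revertant 1. The rule that chose the interval had already placed it at 427.2 kb from these arrays, so both fits are descriptions. A single least-squares step fitted to revertant 2 put the first gained probe at 427.2 kb, 244 bp before the start of wtf8, with means of -0.10 left and 0.87 right of it. The same fit to revertant 2 minus revertant 1 put it at 429001, 238 bp past the end of wtf8, with means of -0.03 and 0.97. The 6 probes between these positions lie in or beside wtf8. In revertant 1 their log2 ratios were, from left to right, 0.70, 0.88, 0.58, 0.76, 1.01 and 0.78. In revertant 2 they were 0.92, 1.04, 0.66, 1.14, 1.16 and 0.92.

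These 6 probes were thus high on both arrays, with medians of 0.77 in revertant 1 (1.71-fold) and 0.98 in revertant 2 (1.97-fold). They differed little between them: the differences were 0.22, 0.16, 0.07, 0.38, 0.16 and 0.14, with a median of 0.16. The last probe before them, 426901, had -0.88 and -0.66, a difference of 0.22. The probes right after them, 429001, 429301 and 429601, had differences of 1.05, 1.03 and 1.11. The change in the difference from under 0.4 to over 1 thus came between neighbouring probes at the right side of wtf8. A probe in wtf8 with many copies could report DNA from any of them, so that the probes do not show whether wtf8 itself was gained, and this was not tested.

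**Figure D2:**
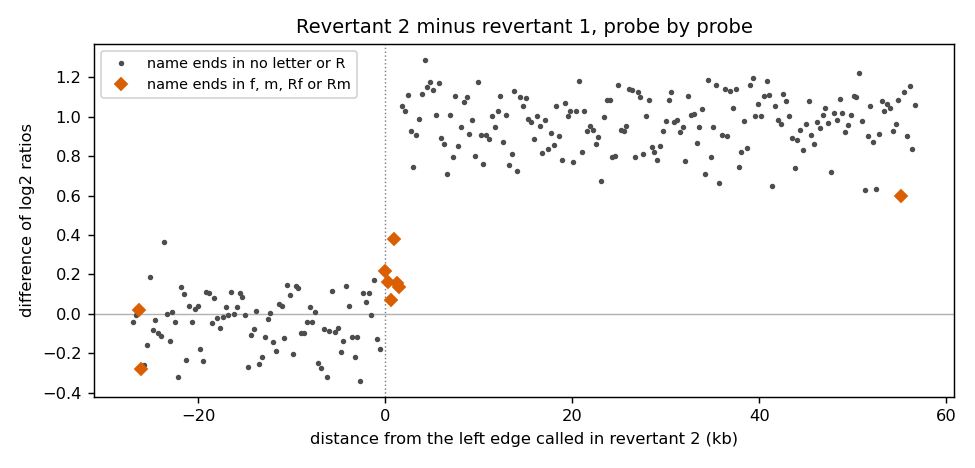
Difference of the log2 ratios, revertant 2 minus revertant 1 (y), for the 280 probes against the distance in kb from the probe at 427.2 kb (x, dotted line at 0). Grey points are probes whose names end in no letter or in R, and orange diamonds those ending in f, m, Rf or Rm. The 6 diamonds at the dotted line lie between 0.07 and 0.38, and the points to their right lie around 0.98.

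The probes at wtf8 also stood apart in their names and brightness. Of the 280 probe names, 271 end in no letter or in R and 9 end in f, m, Rf or Rm. The sources used here do not say what the letters mean. The 9 are the 6 at wtf8, 2 in rpl1902 and 1 in rpl1702, which are the genes whose close copies are given above. No other gene of the interval was searched for copies. Whether genes without such probes lack close copies was therefore not tested. The raw wild-type signals of the wtf8 probes on array 1 ran from 16568 to 65528 with a median of 41705, beside a median of 8318 over all probes, and the probe at 427501 was saturated on both arrays. The 2 probes of rpl1902 had differences of 0.02 and -0.28, like the DNA around them. The probe of rpl1702 at 482401 had 0.22 in revertant 1 and 0.82 in revertant 2, a difference of 0.60. That was the lowest difference among the 184 probes from 429001 to 483901.

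Lettered probes near other wtf genes were above 0 on both arrays too, although those genes lie outside the gains. Chromosome III carries 23 annotated wtf genes, 20 of them outside the gained DNA, and 17 of these had at least 3 probes with f or m in their names within 5 kb. Neighbouring wtf genes share these probes in part or in full, so the 17 are not independent. The pairs wtf11 and wtf12, wtf17 and wtf18, and wtf19 and wtf20 had the same values at them. In all 17 the median of such probes was above 0 on both arrays, from 0.21 to 1.13 in revertant 1 (median 0.54) and from 0.22 to 1.14 in revertant 2 (median 0.59). The other probes around the same genes had medians of 0.06 and 0.00. The difference between the revertants at the lettered probes ran from -0.04 to 0.12, and 0 of the 17 genes reached 0.5. The level of 0.77 at wtf8 in revertant 1 was therefore within the range of wtf genes outside the gains. The difference of 0.16 at wtf8 was above that of each of the 17, and well below the 0.98 of the DNA to its right. Lettered probes were also high near wtf9 (0.77 in revertant 1 and 1.03 in revertant 2) and near wtf10 (1.09 in both). The ends of the shared gain there were read from single arrays, so they are approximate too.

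**Figure D3:**
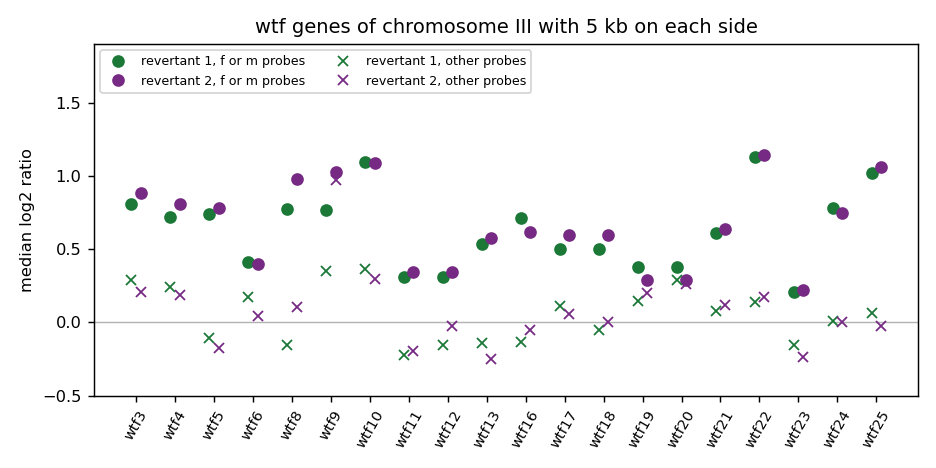
Median log2 ratio (y) around the wtf genes of chromosome III that have at least 3 lettered probes within 5 kb, in order along the chromosome (x), for revertant 1 (green) and revertant 2 (purple). Circles are probes with f or m in their names, crosses the other probes. The circles of the 17 genes outside the gains lie between 0.21 and 1.14 in both revertants, and wtf8, wtf9 and wtf10 lie at the ends of the gains.

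Without the 6 probes at wtf8, the gained DNA was a plateau. The 184 probes from 429001 to 483901 (55.2 kb) had medians of 0.05 in revertant 1 (1.04-fold) and 0.99 in revertant 2 (1.99-fold). Their median difference was 0.98 (1.97-fold), with quartiles of 0.89 and 1.08, a range from 0.60 to 1.29 and an SD over probes of 0.14. That spread was close to the SD of 0.14 on the left and of 0.13 in the shared gain. The ratios of the 2 revertants correlated across the 184 probes at r = 0.98. Probes kept their high and low places on both arrays, and the whole stretch was raised by a nearly constant amount in revertant 2.

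Windows of 10 kb showed the same flatness. From 430001 on, the 5 windows that lie wholly in the gained DNA had median differences of 0.98, 0.95, 0.96, 1.00 and 0.97. In revertant 1 their medians were -0.15, 0.18, -0.03, -0.19 and 0.19. In revertant 2 they were 0.84, 1.05, 0.94, 0.89 and 1.23. The windows that start at 400 and 410 kb, left of the gain, had differences of -0.03 and -0.00. The window from 420 kb, which holds the left end, had 0.05, and the window from 480 kb, which holds the right end of the interval, had 0.88. Of all 1254 windows of the genome, 6 reached 0.5 (0.478%), and all 6 are the windows that start from 430 to 480 kb. The 1234 windows that do not touch the gained DNA had differences from -0.49 to 0.11, with an SD of 0.04.

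Single probes ranged around the plateau, and the length of runs above or below it was not tested. Every probe from 430801 to 432901 and from 466201 to 468301 was above its median of 0.98. Every probe from 448801 to 450301 was below it. The probes with the largest differences were 431401 (1.29, from 0.24 to 1.53), 477901 (1.22, from 0.37 to 1.60) and 466501 (1.19, from 0.13 to 1.33), and that at 431401 was saturated on array 1. Besides rpl1702 at 482401, the lowest were 478501 (0.63, from 0.60 to 1.23) and 479701 (0.63, from 0.10 to 0.73). In places high and low probes lay close together: 477901 and 478501 are 2 bins apart. Probes whose names end in R, 91 of the 184, had a median difference of 0.97 (SD 0.12), and the 92 with no letter had 1.00 (SD 0.14). Both kinds of probe were thus near the level of the plateau.

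The step came from the revertant channel, with a small change in the wild-type channel beside it. Over the 184 probes the median raw signal of the revertant channel was 2967 on array 1 and 5875 on array 2, while that of the wild-type channel was 10327 and 9602. Left of the gain the corresponding medians were 2289 and 2392 for the revertant and 7834 and 7819 for the wild type. With each channel centred on its own array, array 2 minus array 1 had a median of 0.92 in the revertant channel and -0.07 in the wild-type channel over the 184 probes. Over the 90 probes on the left these were -0.00 and 0.00. The wild-type signal was lower on array 2 at 166 of the 184 probes (90.2%), at 40 of the 90 on the left (44.4%), and at 55.1% of all probes.

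Among windows of the genome, the lower wild-type signal was clearest in those wholly inside the gained DNA. In the 5 windows wholly inside it, the median change of the wild-type channel was between -0.08 and -0.07. In the 1234 windows that do not touch the gained DNA it was between -0.03 and 0.07. Of all 1254 windows 5 were at -0.05 or below (0.399%), and these were the same 5. The window from 480 kb, which holds the right end of the interval, had -0.04. The 9 probes from 484201 to 486601, also gained in revertant 2 only, had a median change of -0.03 in the wild-type channel. The log2 ratio of the stretch thus held a part from the wild-type channel, although the same change in the revertant channel alone was 0.92. Whether the wild-type DNA of both arrays was the same extract is not stated, and the cause of the change was not tested.

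**Figure D4:**
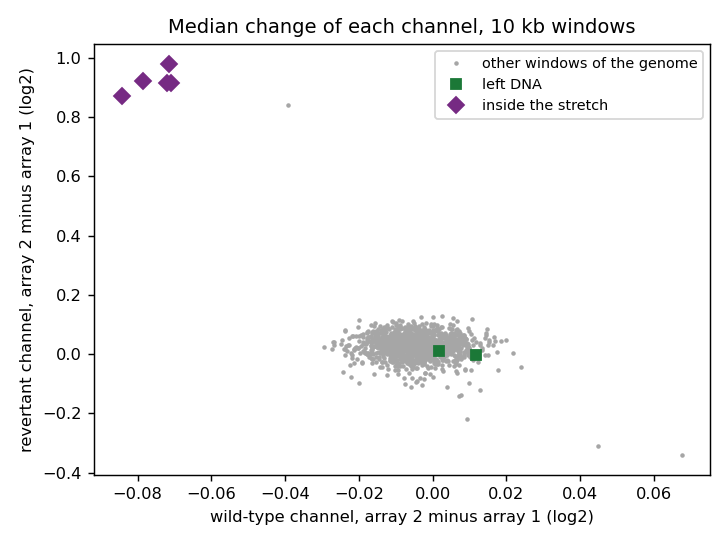
Median change from array 1 to array 2 of the wild-type channel (x, log2) and of the revertant channel (y, log2) in 10 kb windows of the genome. The 5 purple diamonds are windows inside the gained stretch, at 0.87 to 0.98 in the revertant channel and -0.08 to -0.07 in the wild-type channel. The grey point nearest to them is the window at the right end of the interval.

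Brighter probes had the larger drop in the wild-type channel. When the 184 probes were ordered by their wild-type signal on array 1, the dimmest 61 (median raw signal 3886) had a median change of -0.03 in that channel. The middle 61 (10291) had -0.08 and the brightest 62 (20996) had -0.14. The revertant channel changed by 0.92, 0.91 and 0.93 in the same groups, which differ by no more than 0.02. The difference of the log2 ratios was therefore 0.92, 0.98 and 1.04. Across the 184 probes, the change of the wild-type channel correlated with brightness at r = -0.74. Across the 90 probes on the left it correlated at r = -0.05, and across all 41538 at r = -0.06. The probes share 2 arrays and the brightness is that of array 1, so that these are descriptions.

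Every protein-coding gene of the gained DNA that could be measured was higher in revertant 2. The DNA from 427.2 kb to the end of the interval holds 26 annotated genes, 25 of them protein-coding, and 24 had at least 3 probes inside their annotated interval. A gene's value is the mean over those probes. Of the 24, 23 had a difference of at least 0.5, and the exception was wtf8 (0.80 in revertant 1, 0.98 in revertant 2, difference 0.18 over 5 probes). Within 1 Mb of the left end of chromosome III, 25 of 355 genes (7.04%) reached 0.5, and the stretch was chosen on this contrast. The 23 protein-coding genes had differences from 0.89 to 1.10 with a median of 0.95. Their medians were -0.12 in revertant 1 and 0.86 in revertant 2. In revertant 1 the genes ranged from -0.82 to 0.29 and in revertant 2 from 0.14 to 1.18, a spread that was kept from array to array. The source of this spread was not tested.

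**Figure D5:**
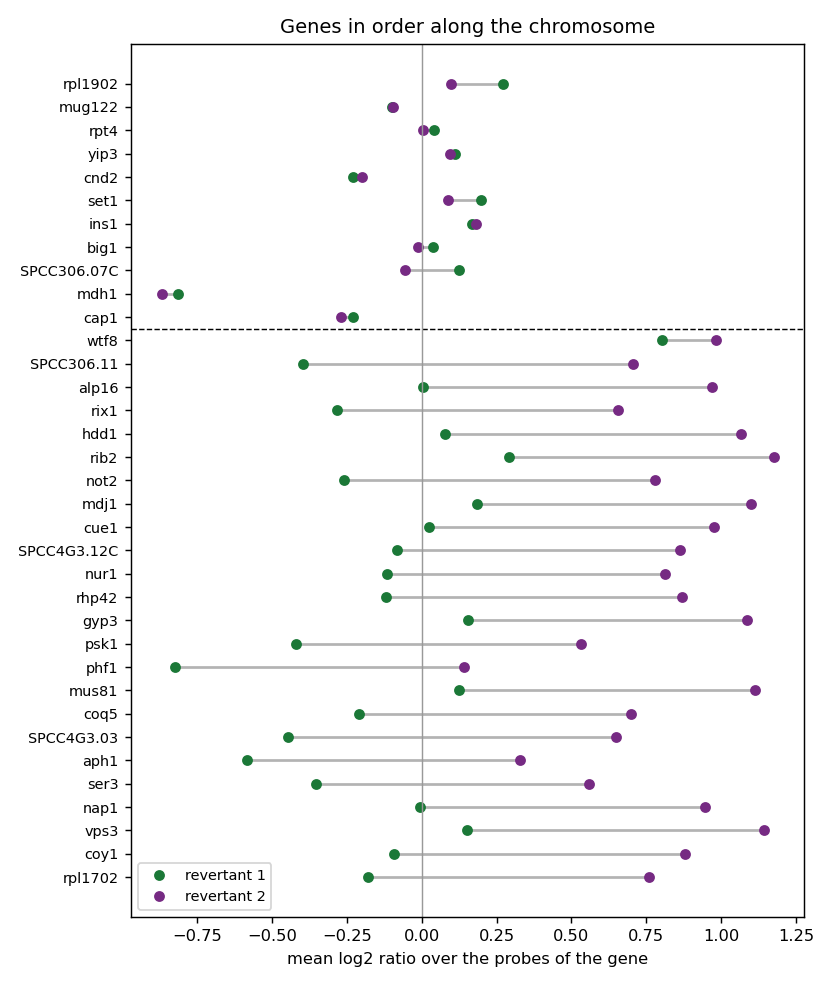
Mean log2 ratio over the probes of a gene (x) for the 35 measured genes of the interval in order along the chromosome (y), revertant 1 in green and revertant 2 in purple, joined by a line. The dashed line marks the left end of the gain as read in revertant 2 alone. Below it the 23 protein-coding genes have lines 0.89 to 1.10 long, wtf8 has one of 0.18, and the 11 genes above it have differences from -0.18 to 0.03.

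Among the gained genes were 2 of DNA repair. mus81 (SPCC4G3.05C, III:462720-464714) encodes the catalytic subunit of a structure-specific endonuclease that works with Eme1 on branched DNA at damaged replication forks. It had 0.12 in revertant 1 and 1.11 in revertant 2, a difference of 0.99 over 7 probes. rhp42 (III:451795-454813) encodes a homologue of the human damage sensor XPC of nucleotide excision repair, and had -0.12 and 0.87, a difference of 0.99 over 11 probes. Both differences were close to the 0.98 of the plateau.

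Genes of chromatin, the nuclear rim and the cytoskeleton lay along the whole stretch. nap1 (III:473598-475661), a chaperone of histones H2A and H2B, had -0.0076 and 0.95, a difference of 0.95. phf1 (III:459868-461914), a PHD finger protein found with the Lsd1 histone demethylase, had the lowest ratios of the 23 genes on both arrays, -0.82 and 0.14, yet its difference was 0.97. nur1 (III:450209-451763), a partner of the inner nuclear membrane protein Lem2, had -0.12 and 0.81, a difference of 0.93. alp16 (III:432264-434786), a subunit of the gamma-tubulin complex that nucleates microtubules, had 0.00 and 0.97, a difference of 0.97. The ratio of phf1 in revertant 2 was within the range of the genes left of the gain, which reached 0.18 there, and only the difference from revertant 1 set it apart.

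Genes of the ribosome and of RNA turnover had differences in the same narrow range. rix1 (III:435804-438519), of a complex that acts in ribosome assembly and at heterochromatin, had -0.28 and 0.65, a difference of 0.94. not2 (III:441536-442914), a subunit of the Ccr4-Not complex that shortens the poly(A) tails of mRNAs, had -0.26 and 0.78, a difference of 1.04. rpl1702 (III:481893-482830) had -0.18 and 0.76, a difference of 0.94 over 3 probes, one of which is the low probe at 482401. mrpl4 (III:461928-462470), of the mitochondrial ribosome, had only 2 probes, at a mean difference of 0.87, and SPCC4G3.20 (III:446237-446407) had 1, at 1.07.

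Metabolic genes and genes of mitochondria made up a further group. mdj1 (III:442924-445176), a mitochondrial chaperone of the DnaJ type, had 0.19 and 1.10, a difference of 0.91. coq5 (III:464885-466234), a methyltransferase of ubiquinone synthesis, had -0.21 and 0.70, a difference of 0.91. ser3 (III:470073-472324), the phosphoglycerate dehydrogenase that starts serine synthesis, had -0.35 and 0.56, a difference of 0.91. These 3 were at the low side of the gene values, whose median was 0.95. aph1 (III:468323-469727), a hydrolase of diadenosine tetraphosphate, had -0.58 and 0.33, also a difference of 0.91. rib2 (III:439865-441332), an enzyme of riboflavin synthesis, had the highest ratios of the 23 genes on both arrays, 0.29 and 1.18, and the smallest difference, 0.89. hdd1 (III:438715-439828), an HD domain protein, had 0.08 and 1.07, a difference of 0.99. The gene with the lowest levels, phf1, thus had a larger difference than the gene with the highest levels.

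The remaining named genes act in signalling and membrane traffic. psk1 (III:457709-459495), a kinase related to the ribosomal S6 kinase, had -0.42 and 0.53, a difference of 0.95. gyp3 (III:455053-457759), a GTPase-activating protein, had 0.16 and 1.09, a difference of 0.93. cue1 (III:445239-446630), with a CUE domain, had 0.02 and 0.98, a difference of 0.95. In vps3 and coy1, which act in vesicle traffic to the vacuole and at the Golgi in budding yeast, the pattern was the same. vps3 (III:475783-479061) had 0.15 and 1.14, a difference of 0.99, and coy1 (III:479668-482327) had -0.09 and 0.88, a difference of 0.97.

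The 3 measured genes known by systematic names alone included the largest differences. SPCC306.11 (III:430415-432270), the first whole gene right of wtf8 among those measured, had -0.40 and 0.71, a difference of 1.10 over 6 probes that included the saturated probe at 431401. SPCC4G3.03 (III:466208-468335), a WD40 repeat protein, had -0.45 and 0.65, a difference of 1.09 over 7 probes. SPCC4G3.12C (III:446785-450197), a putative ubiquitin ligase, had -0.08 and 0.86, a difference of 0.95 over 11 probes. With not2 (1.04), the first 2 were the only genes of the 23 past 1 in the difference, and the lowest 3 were rib2 (0.89), coq5 (0.91) and aph1 (0.91). The probe ranges within these genes overlapped.

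The genes left of wtf8 showed no such shift. All 11 annotated genes from rpl1902 to cap1 were measured, and 0 reached a difference of 0.5. Their differences ran from -0.18 to 0.03 (median -0.04), with medians of 0.04 in revertant 1 and -0.01 in revertant 2. The 2 genes next to the edge on this side were mdh1 and cap1. mdh1 (III:421646-423421), encoding malate dehydrogenase, had -0.82 in revertant 1 and -0.87 in revertant 2. cap1 (III:423752-426362), encoding a protein that binds adenylyl cyclase and actin, had -0.23 and -0.27. mdh1 was therefore as low as phf1 in revertant 1, and it was as low in revertant 2, where phf1 was not.

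Well-known genes of this side were at the level of the genome on both arrays. set1 (III:412293-415947), the methyltransferase of lysine 4 of histone H3, had 0.20 and 0.09. cnd2 (III:409354-412091), a condensin subunit, had -0.23 and -0.20, and rpt4 (III:405601-407595), an ATPase of the proteasome, had 0.04 and 0.00. rpl1902 (III:400753-401447) had 0.27 and 0.10. ins1 (III:416157-417667), of the INSIG family that regulates sterol synthesis, had 0.17 and 0.18. big1 (III:418005-419541) had 0.04 and -0.01, and yip3 (III:407598-408865) had 0.11 and 0.09. mug122 (III:401921-404951) had -0.10 and -0.10, and SPCC306.07C (III:419629-421170) had 0.13 and -0.06, the lowest difference of the 11 at -0.18.

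Genes that act with mus81, and histone chaperone genes other than nap1, were read too. They lie outside the interval, where probe and assembly positions may be shifted, so each value is the median of all probes up to 5 kb away. Of 18 genes that act with mus81 in processing and restarting forks, 0 reached a difference of 0.5, and their differences ran from -0.03 to 0.09 (median 0.01). eme1, the partner subunit of mus81, had -0.03 in both revertants. Of the 12 histone chaperone genes other than nap1, 0 reached 0.5, with differences from -0.06 to 0.10 (median 0.01), and nap2, the paralogue of nap1, had -0.22 and -0.10. Over the 5111 neighbourhoods of all protein-coding genes the median was 0.01, and 27 (0.528%) reached 0.5, so that counts of 0 in such short lists say nothing particular to them.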

How the data were processed

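Genomic DNA of 2 sap1-1 revertants and wild type was hybridised to 2-colour Agilent arrays on 1 slide, with 1 array a revertant. Per the file headers, the authors quantified the scans with Agilent Feature Extraction 10.10.1.1; the deposited processed signals are intensities, background-subtracted and scaled by a linear factor per dye (green 0.136 and 0.137, red 0.517 and 0.460). The deposited log10 ratios equalled log10 of red over green within 0.001 (0 exceptions) and served only as a check. The deposited flags mark outlier, saturated and dim spots. The authors' deposited series table of log2 ratios equalled the uncentred running mean over 5 probes of log2 red over green for 100% of 41239 probes, within 0.001. Its column medians were -0.0030 and -0.01.

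Here log2 ratios were centred on the array median (0.09 and 0.08) without loess, and outlier-flagged probes were left out (10 and 3). Median raw signals were 8318 and 8348 in the wild-type channel and 2350 and 2577 in the revertant channel, and 414 and 407 probes were saturated in a channel. The number of arrays limits the precision. No test was made: the interval was chosen from these values, with 1 array a side. Genes were means over at least 3 probes, windows medians over at least 5, and edges 1 least-squares step. The step fit was checked on simulated steps in values drawn at random from chromosomes I and II. Probes with f or m in their names were left out there, so the check does not cover an edge at wtf8. A gene could be named if at least 3 of its probes lay in the interval; SPCC4G3.20 and mrpl4, with fewer, were named after their values were seen. Members, lists and rules were chosen with earlier results of these data known. Sequence matches used BLAST 2.17.0 on ASM294v3, from RefSeq. The normexp alternative used median signals where mean signals had been planned. Other tools were Python 3.11.15 with numpy 2.4.6, pandas 2.3.3 and matplotlib 3.10.9, and R 4.3.3 with limma 3.58.1. Alternatives were centring, loess, normexp, flags, saturation, dim probes, the series table, the summary over probes and the edge method.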

Additional observations from a re-analysis of the deposited data

How the results depend on the processing

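Of 83 values recomputed for 8 results under the alternatives, 69 stayed within the spread allowed (0.04, the SD of window differences, or 300 bp for an edge, or 1.5 times for the gene count), 14 moved and none changed the sign of a called value. Some of the 69 could not have moved. Keeping flagged probes changed no value, since 0 of the 280 probes carried a flag. Other centring shifts all probes of an array by a constant, which cannot move an edge. The median of the stretch in revertant 2 (0.99) was 1.07 with no centring, 0.88 after loess, 0.95 with normexp and 0.87 as a mean over probes. In revertant 1 (0.07) it was 0.16 with no centring, -0.029 after loess and -0.077 as a mean. The difference (0.97) was 0.90 after loess and 0.93 with normexp. The level of the left DNA on both arrays (mean of the array medians 0.03 ± 0.05, SD, n = 2) was 0.11 with no centring, 0.14 without the dimmest 10% of probes and -0.078 as a mean over probes. These 2 arrays are 1 of each revertant, so the SD is not one of replicates. It ran from -0.01 to 0.06 when either array was left out. The edge in revertant 2 (427.2 kb) was 428101 after loess and 429001 without the probes with f or m in their names, an alternative chosen after seeing the data. All 6 probes at wtf8 carry such letters, so without them the edge could not stay at 427.2 kb. The edge in the difference was 429001 in all 10 alternatives. The gene count (23) ran from 22 to 25 over its 11 alternatives (22 without the lettered probes, 25 with at least 1 probe a gene, which measured fewer or more genes), and the same 23 genes were counted in 8 of them. The cause of the other changes was not tested. No paired analysis was possible because both arrays carry the 1 group label, revertant, with 1 array a revertant. The saturated wtf8 probe at 427501 and the 1 array a revertant limit what the edge can show. Leaving saturated probes out moved neither edge.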

Other observations

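Lettered probes differed from the others in brightness and level. The 436 probes whose names end in m or Rm had medians of 0.45 in revertant 1 and 0.37 in revertant 2, and their wild-type signal was 2.55 above the array median on the log2 scale. The 1071 probes ending in f or Rf had 0.32 and 0.27, but 632 of them lie in chromosome interiors without a gain, at 0.10 and 0.06. The 39731 probes ending in no letter or R had -0.01 on both arrays. On chromosome III outside the gains and the chromosome ends, 166 probes ending in m or Rm had 0.37 and 0.34, with a median difference between the revertants of -0.01. The part of brightness in these levels was not tested.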
